A study of Mus musculus with 6 samples.

Results

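The genes described here make cholesterol and fatty acids or control that work. They are 36 genes chosen by name: 17 enzymes of sterol synthesis, 5 regulators of the SREBP factors, 10 enzymes of fatty acid synthesis, and 4 genes of the LXR receptor and its targets. They stand among 17610 genes tested for a difference between CD4+ T cells of the Wtap KO group and the wild-type (WT) group. All 36 passed the filter on low counts.

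Cells make cholesterol from acetyl-CoA through mevalonate and squalene, and the same early steps feed the lipid anchors of signalling proteins. SREBP-2, the product of Srebf2, switches on sterol genes when membrane sterol runs low, and SREBP-1, the product of Srebf1, acts more on fatty acid genes. SCAP carries both factors out of the endoplasmic reticulum and the INSIG proteins hold them back, whereas LXR receptors respond to oxysterols and switch on cholesterol export. T cells that divide after activation are known to raise SREBP activity, since new membrane needs both kinds of lipid. Wtap is a subunit of the nuclear complex that writes N6-methyladenosine (m6A) into mRNA, a mark that can change how long an mRNA lasts.

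The series holds 6 mRNA libraries from C57BL/6J CD4+ T cells, 3 WT and 3 labelled as Wtap KO. The protocol is worded alike for both groups. It gives 4-hydroxytamoxifen at 1 µM for 24 h to delete Wtap, then stimulation through CD3 (1 µg/mL) and CD28 (2.5 µg/mL) under Th1 polarisation (10 ng/mL IL-12 plus 10 µg/mL of an antibody against IL-4). Stimulation lasted 40 to 48 h, was followed by IL-2 at 200 IU/mL, and ended with harvest on day 4. The sources used here do not give the Cre line, the age of the mice, the part of Wtap that was removed, or whether WT cells carried Cre. They also do not tie libraries to separate animals. The p-values therefore set the group difference only against the spread among these samples, which may be technical in part.

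Depth ran from 32363139 to 44039467 estimated counts per library. Total Wtap RNA averaged 105 ± 9.99 CPM (SD, n = 3) over the WT libraries and 117 ± 3.00 CPM over those of Wtap KO (difference 0.16 ± 0.10 on the log2 scale, edgeR adjusted p = 0.371), which does not check the deletion because the deleted part is not stated. CPM here means a count scaled to library sizes adjusted by edgeR's TMM factors, and TPM is a level per transcript length. Markers of CD4 T cells were abundant in every library, at 3268 to 3564 summed TPM in WT and 2703 to 2887 in Wtap KO. Of these 7 markers 2 were called lower, Cd3g and Cd4, and of 2 CD8 T cell markers Cd8b1 was called higher (adjusted p = 0.0137, 0.0244 and 0.0268 in edgeR). Their part in the falls described here was not tested. The library Wtap KO 3 stood apart: it held the Y-linked Kdm5d at 63.3 CPM, where the other 5 libraries held 2.43 to 3.53 CPM. It held Xist at 3.81 CPM, where they held 1980 to 4448 CPM. These are male levels in Wtap KO 3 and female levels in the other 5, so Wtap KO 3 did not share its source animal with them. Where leaving out that library changed a call or moved a main value markedly, both values are given.

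Of the 36 genes, 3 fell in Wtap KO, 0 rose and 33 did not pass (edgeR quasi-likelihood, Benjamini-Hochberg adjusted p under 0.05). The falls were Idi1, an isomerase of the mevalonate pathway, Elovl5, an elongase of polyunsaturated fatty acids, and Mylip, a ubiquitin ligase under LXR control. Among all genes tested, 9.23% were called in either direction and 3.49% were called lower, against 8.33% of the 36 genes in both cases. The share called in either direction is thus near the background. At an unadjusted p under 0.05 stood 11 of the 36 (30.6%), 9 lower and 2 higher, against 26.3% of all genes tested. The count of genes called lower varied with the setting. It was 8 of 36 with DESeq2 against 6.88% of all genes, 5 with a GC offset against 6.04%, and 4 with a replicate block against 1.97%. It was 2 with limma on log2(TPM + 1) against 1.885% of all genes. Leaving out WT 2 or Wtap KO 1, 2 or 3 gave 1 each, against 0.92%, 0.63%, 0.54% and 1.26% of all genes. The median log2 fold change (Wtap KO over WT) was -0.19 over the 36 genes and -0.00058 over all genes tested, with 27 of the 36 below 0. Without Wtap KO 3 the median over the 36 genes was -0.08, with 22 below 0. Every Wtap KO library lay below every WT library for 9 genes, 25.0% of the 36 against 15.5% of all genes tested. The reverse held for 2 genes, 5.56% against 17.2%. In bulk RNA, fewer cells that express a gene and less RNA per cell cannot be told apart.

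**Figure D1:**
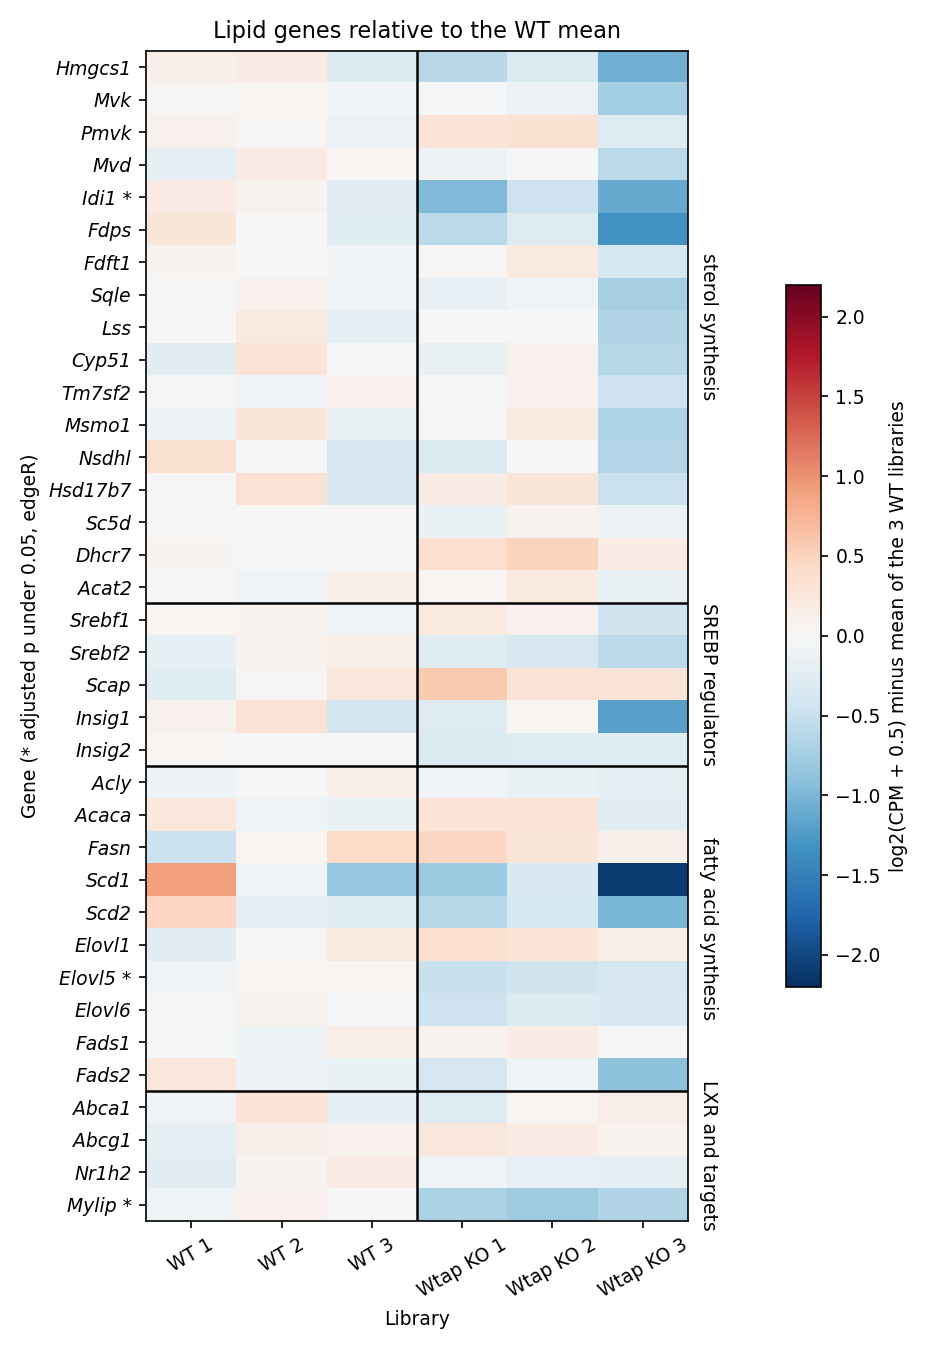
Level of each of the 36 genes (rows, in 4 role groups) in each of the 6 libraries (columns), as log2(CPM + 0.5) minus the mean of the 3 WT libraries. Blue is below and red above that mean, and a star marks an adjusted p under 0.05 in edgeR. The column of Wtap KO 3 is the bluest among the sterol genes, while Elovl5 and Mylip are blue in all 3 Wtap KO libraries.

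Among the 17 sterol synthesis genes, 1 fell and 16 did not pass. Idi1 (ENSMUSG00000058258, GRCm38 chromosome 13, 8885501 to 8892451) makes dimethylallyl diphosphate, the starter unit of all longer isoprenoids. It was at 131, 122 and 97.2 CPM in WT 1 to 3 and at 58.7, 84.1 and 53.4 CPM in Wtap KO 1 to 3. The groups did not overlap, and the log2 fold change was -0.83 ± 0.18 (SE; edgeR adjusted p = 0.0283). The call was lost on leaving out WT 1, WT 2, Wtap KO 1 or Wtap KO 3 in turn (edgeR adjusted p = 0.0518, 0.0930, 0.133 and 0.0970), although the log2 fold change stayed between -1.06 and -0.71 over the 6 left-out libraries. Of the stretches of 31 bases in Idi1 transcripts, 27.1% also occur in other genes, chiefly the processed pseudogene Gm13502 (18.4%). Gm13502 was listed at 15.9 to 19.9 CPM in WT and 9.81 to 12.8 CPM in Wtap KO (adjusted p = 0.0320 in edgeR), and the split of reads between these 2 genes is uncertain. Their sum ran from 113 to 150.5 CPM in WT and from 64.1 to 97.0 CPM in Wtap KO and did not overlap either.

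Hmgcs1 acts several steps before Idi1 and Fdps acts on its product. Hmgcs1, which makes HMG-CoA at the entry of the pathway, was at 79.8, 84.1 and 59.6 CPM in WT and at 48.2, 59.0 and 35.2 CPM in Wtap KO. The highest Wtap KO library lay barely under the lowest WT library, and the gene did not pass (log2 fold change -0.65 ± 0.20, edgeR adjusted p = 0.0766). It did pass with the DESeq2 Wald test (adjusted p = 0.0192), with no filter on low counts (edgeR adjusted p = 0.0400) and without WT 3 (edgeR adjusted p = 0.0367). Fdps, which makes farnesyl diphosphate, was at 95.3, 78.8 and 65.7 CPM in WT and at 52.1, 64.6 and 31.2 CPM in Wtap KO. It did not pass (log2 fold change -0.70 ± 0.25, edgeR adjusted p = 0.117), but did with DESeq2 (adjusted p = 0.0373) and with the replicate number as a block (edgeR adjusted p = 0.0442). Of the gene's sequence, 27.9% of the 31-base stretches occur in other genes, mainly ones listed at 0.148 CPM or less. Without Wtap KO 3 the log2 fold change was -0.48 for Hmgcs1 and -0.45 for Fdps.

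The kinase and decarboxylase steps of mevalonate were weakly expressed and did not pass. In the order WT, then Wtap KO, the means were 5.85 and 4.75 CPM for Mvk, 5.41 and 6.01 CPM for Pmvk, and 15.9 and 13.6 CPM for Mvd. Sqle, the squalene epoxidase that sets the pace of the later pathway, was at 58.3, 62.9 and 55.7 CPM in WT and at 51.8, 56.6 and 35.2 CPM in Wtap KO. Here WT 3 lay below Wtap KO 2, so the groups overlapped (log2 fold change -0.30 ± 0.17, edgeR adjusted p = 0.301). Without Wtap KO 3 the log2 fold change was -0.12 (edgeR adjusted p = 0.594). Fdft1, the squalene synthase, averaged 38.1 and 37.5 CPM, and Lss, which closes squalene derivatives into lanosterol, 23.5 and 20.4 CPM. For Fdft1, 31.9% of the 31-base stretches occur in other genes, Ctsb among them.

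The listed enzymes that turn lanosterol into cholesterol did not pass either. Lbr, a sterol reductase read with the wider lists, was called lower in edgeR and is described below. The demethylase Cyp51 was at 80.3, 116 and 92.4 CPM in WT and at 84.9, 101 and 61.5 CPM in Wtap KO. Msmo1, the methylsterol oxidase, averaged 59.8 and 54.3 CPM, the X-linked dehydrogenase Nsdhl 46.5 and 37.4 CPM, and Hsd17b7 15.08 and 15.04 CPM. Tm7sf2, a sterol reductase, averaged 5.84 and 5.41 CPM, and Sc5d, a desaturase, 95.2 and 91.3 CPM. Dhcr7, the reductase of the last step of one branch, was the sterol gene with the highest log2 fold change. It was at 35.4, 33.4 and 33.2 CPM in WT and at 43.9, 47.8 and 37.9 CPM in Wtap KO. The groups did not overlap, but the difference did not pass (log2 fold change 0.35 ± 0.12, edgeR adjusted p = 0.103). Acat2, the cytosolic thiolase that makes acetoacetyl-CoA, averaged 16.6 and 17.1 CPM. Acat2 is a neighbour of the targeted gene: it ends 6048 bases from Wtap on chromosome 17. Of its 31-base stretches 43.8% occur in Acat3, which was listed at 0.682 to 0.996 CPM. Another gene, the abundant Tcp1 at 171 to 291 CPM, holds 13.2% of them, so the level of Acat2 is uncertain.

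Wtap KO 3 was the lowest of the 3 Wtap KO libraries for 16 of the 17 sterol genes, the exception being Sc5d. Over all genes tested it was lowest in its group for 39.4%. Among the WT libraries WT 3 was lowest for 13 of the 17, against 36.4% of all genes tested, with a smaller shift: its median sterol gene stood at -0.08 relative to the WT mean. Against the mean of Wtap KO 1 and 2, the median difference of Wtap KO 3 was -0.59 over the sterol genes on the log2(CPM + 0.5) scale. Over all genes tested it was -0.0081. Relative to the WT mean, the median sterol gene stood at -0.04 in Wtap KO 1, 0.08 in Wtap KO 2 and -0.62 in Wtap KO 3. In summed TPM the 17 genes came to 419, 409 and 348 in WT and to 346, 374 and 258 in Wtap KO. The median log2 fold change of the sterol genes was -0.20 with all libraries, -0.03 without Wtap KO 3 and -0.0069 when WT 1 was left out as well. The last setting was chosen with the data in view. The number of sterol genes with a log2 fold change below 0 was 14 of 17, 10 and 9 in these settings. A lower level over the sterol genes thus rests on Wtap KO 3. Idi1, Hmgcs1 and Fdps were below every WT library in all 3 Wtap KO libraries. They are 3 of the 17 genes (17.65%), near the 15.5% of all genes tested. Sex genes, given above, set the same library apart, and their part in the result was not tested.

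**Figure D2:**
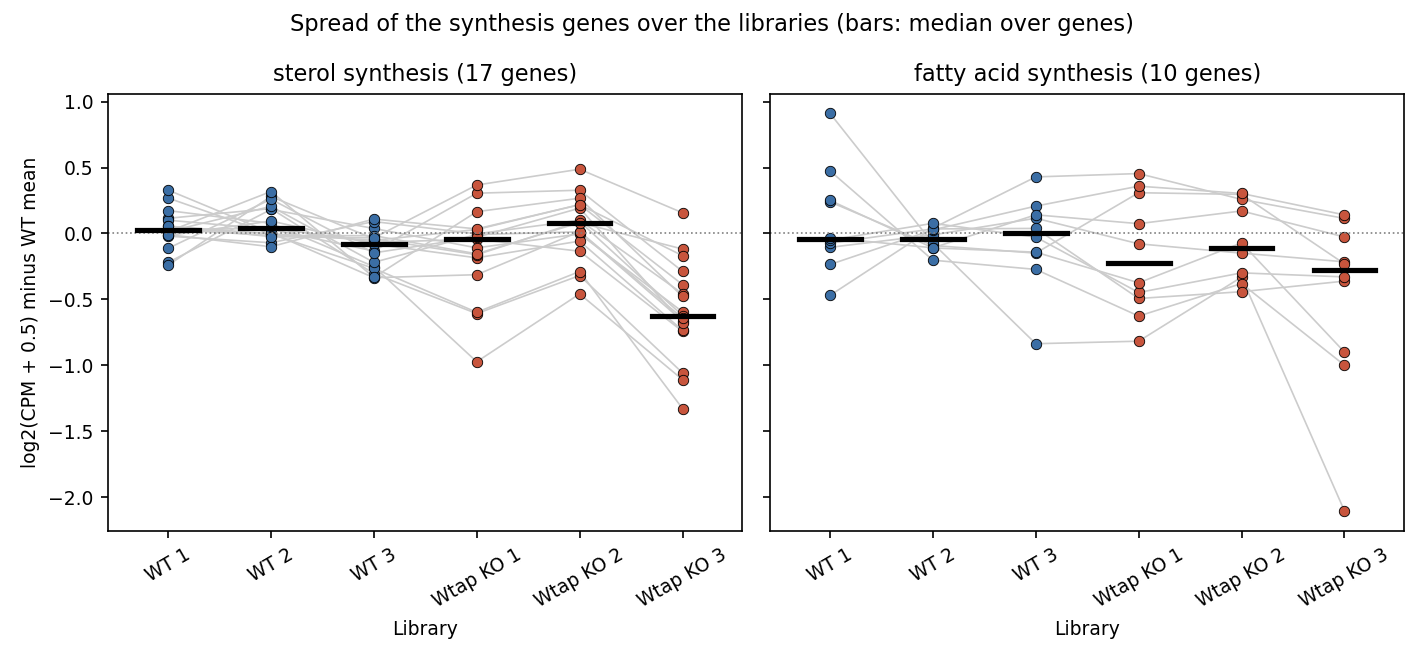
Each point is a gene, placed by library (x axis) and by log2(CPM + 0.5) minus the mean of the 3 WT libraries (y axis), for the 17 sterol genes (left) and the 10 fatty acid genes (right). Grey lines join a gene across libraries and black bars give the median over genes. The sterol medians lie near 0 in 5 libraries and at -0.62 in Wtap KO 3.

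Of the 5 genes that control SREBP, 0 rose and 0 fell in edgeR's test, and 2 were lower and 1 was higher at an unadjusted p under 0.05, a threshold met by 26.3% of all genes tested. Srebf2 (ENSMUSG00000022463, GRCm38 chromosome 15, 82147181 to 82205379) was at 197, 239 and 249.8 CPM in WT and at 189, 179 and 152 CPM in Wtap KO. WT 1 lay close to Wtap KO 1 and the others further apart, and the gene did not pass (log2 fold change -0.40 ± 0.13, edgeR adjusted p = 0.0874). It passed without WT 1 (edgeR adjusted p = 0.0184), without both WT 1 and Wtap KO 3 (0.0237), with an offset for GC content (0.00560) and with DESeq2 (0.0403). Srebf1 was at 56.4, 57.1 and 51.6 CPM in WT and at 64.2, 59.1 and 40.5 CPM in Wtap KO, on both sides of the WT libraries. Its log2 fold change was -0.01 ± 0.17 (edgeR adjusted p = 0.976), and 0.16 without Wtap KO 3.

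Scap, the escort of both factors, was at 31.7, 38.8 and 45.1 CPM in WT and at 56.8, 46.8 and 46.7 CPM in Wtap KO. Every Wtap KO library lay above WT, yet Scap did not pass (log2 fold change 0.38 ± 0.15, edgeR adjusted p = 0.154). The 2 brakes varied in unlike ways. Insig1, itself a target of SREBP, was at 67.2, 79.2 and 47.1 CPM in WT and at 51.8, 64.7 and 27.3 CPM in Wtap KO, with overlap between the groups. Its log2 fold change was -0.43 ± 0.31 (edgeR adjusted p = 0.436), and -0.15 without Wtap KO 3. Its spread within each group resembled that of the sterol genes, with WT 3 and Wtap KO 3 lowest. Insig2 held to a narrow band of 17.4 to 18.5 CPM in WT and, below it, of 14.4 to 14.8 CPM in Wtap KO. It did not pass (log2 fold change -0.30 ± 0.12, edgeR adjusted p = 0.145).

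Among the 10 fatty acid genes, 1 fell and 9 did not pass. Elovl5 (ENSMUSG00000032349, GRCm38 chromosome 9, 77917364 to 77984519) had the highest level per length of the 36 genes, at 168 ± 5.90 TPM (SD, n = 3) in WT and 129 ± 8.03 TPM in Wtap KO. In counts it was at 431, 464 and 465 CPM in WT and at 322, 334 and 353 CPM in Wtap KO. The gap between the groups was wider than the spread within either, and the log2 fold change was -0.43 ± 0.09 (SE; edgeR adjusted p = 0.0256). No 31-base stretch of Elovl5 occurs in another gene. The call was lost when WT 2 or any of the Wtap KO libraries was left out (edgeR adjusted p = 0.0563 to 0.135), with the replicate number as a block (edgeR adjusted p = 0.0741) and with limma on log2(TPM + 1) (adjusted p = 0.0572), with a log2 fold change of -0.51 to -0.38 over all settings.

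Elovl6, the elongase of saturated chains, showed a similar layout. It was at 72.3, 79.0 and 73.5 CPM in WT and at 54.8, 60.8 and 59.5 CPM in Wtap KO. The groups were separate, but the difference did not pass (log2 fold change -0.36 ± 0.10, edgeR adjusted p = 0.0552). It passed with DESeq2 (adjusted p = 0.0135), without WT 1 (edgeR adjusted p = 0.0343) and without both WT 1 and Wtap KO 3 (0.0384). Elovl1, which extends very long saturated chains, averaged 68.9 and 82.6 CPM in these groups (edgeR adjusted p = 0.251). In Elovl5 and Elovl6, unlike most sterol genes, Wtap KO 3 was not the lowest Wtap KO library.

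The stearoyl-CoA desaturases, which place the double bond of oleate, had the largest SEs among the 10 fatty acid genes. Scd2 was at 924, 578 and 550.4 CPM in WT and at 431, 511 and 332 CPM in Wtap KO, with WT 1 far above the rest. The groups did not overlap and the gene did not pass (log2 fold change -0.69 ± 0.22, edgeR adjusted p = 0.0904), although it did with DESeq2 (adjusted p = 0.0220). The log2 fold change was -0.41 without WT 1 and -0.26 without both WT 1 and Wtap KO 3. Scd1 was at 118, 59.3 and 34.8 CPM in WT and at 35.3, 49.6 and 14.2 CPM in Wtap KO. The fold change, -1.10 on the log2 scale, was the lowest of the 36 genes, but its SE was 0.57 and the groups overlapped (edgeR adjusted p = 0.278). Without both WT 1 and Wtap KO 3, its log2 fold change was -0.15.

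The enzymes that build the chain did not pass. Fasn, the fatty acid synthase, was at 66.0, 94.2 and 123 CPM in WT and at 126, 110 and 99.1 CPM in Wtap KO. WT 1 was low and WT 3 lay within the Wtap KO range (log2 fold change 0.24 ± 0.21, edgeR adjusted p = 0.515). Acly, which supplies cytosolic acetyl-CoA, averaged 132 and 119 CPM, and Acaca, which carboxylates it to malonyl-CoA, 31.97 and 35.2 CPM. A processed pseudogene holds 31.7% of the 31-base stretches of Acaca and was listed at 0.221 CPM or less. The desaturases of polyunsaturated chains, Fads1 and Fads2, averaged 23.9 and 41.6 CPM in WT and, in Wtap KO, 25.1 and 30.9 CPM (edgeR adjusted p = 0.767 and 0.235).

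**Figure D3:**
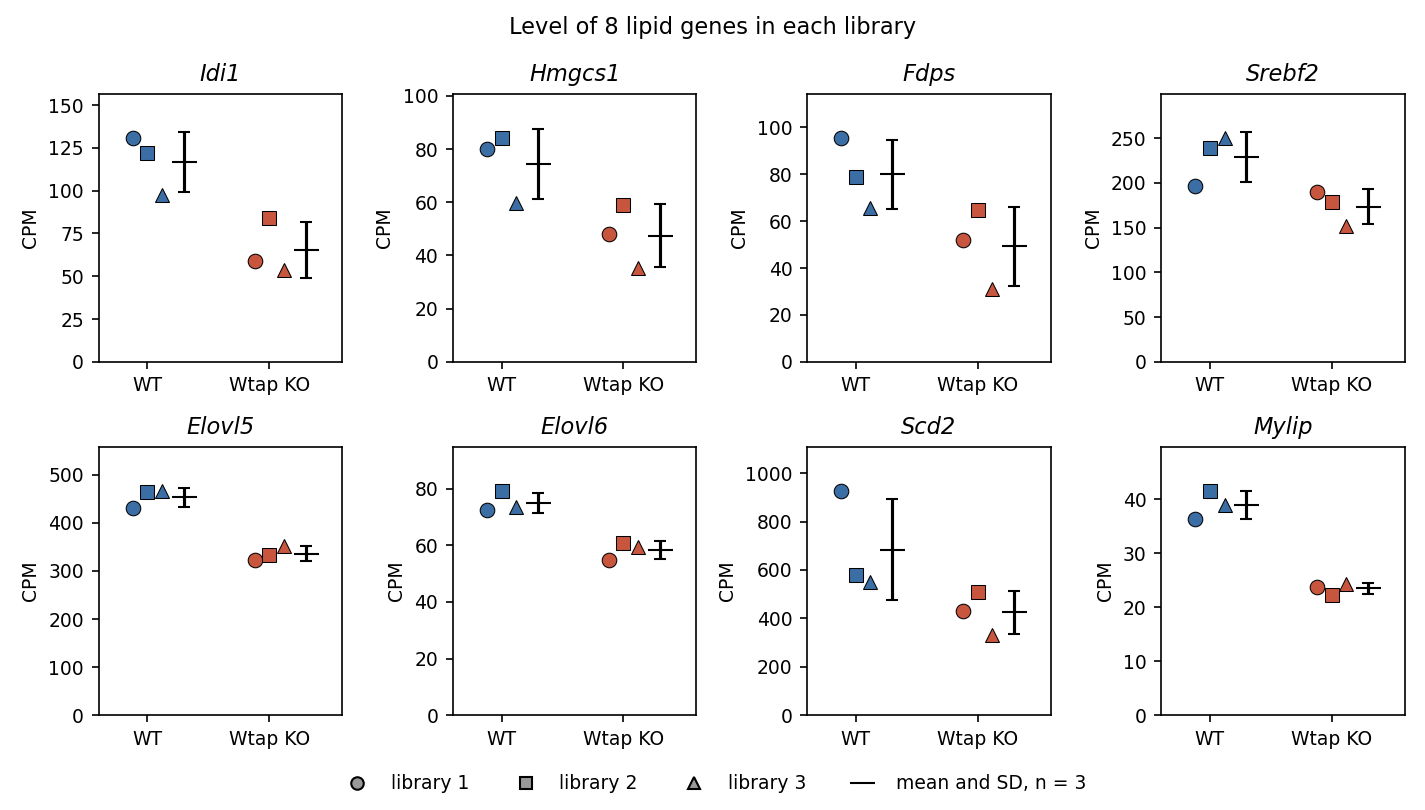
CPM (y axis, from 0) of 8 genes in each library, with circles, squares and triangles for libraries 1, 2 and 3 and a bar for the mean and SD of 3 libraries. Mylip and Elovl5 show tight groups with a gap, whereas in Idi1, Hmgcs1, Fdps and Scd2 the libraries of each group spread widely.

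Of the 4 genes of the LXR arm, 1 fell and 3 did not pass. Mylip (ENSMUSG00000038175, GRCm38 chromosome 13, 45389742 to 45412022), also called Idol, marks lipoprotein receptors for degradation and so limits cholesterol uptake. It was at 36.4, 41.5 and 39.0 CPM in WT and at 23.8, 22.3 and 24.3 CPM in Wtap KO. The lowest WT library lay well above the highest Wtap KO library, and the log2 fold change was -0.73 ± 0.11 (SE; edgeR adjusted p = 0.00709). This was the smallest p-value among the 36 genes. The call was lost without Wtap KO 2 (edgeR adjusted p = 0.0575) and held in the other 14 settings, with a log2 fold change of -0.80 to -0.62 throughout.

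The other LXR genes gave no such separation. Abca1, which exports cholesterol to apolipoproteins, was at 14.6, 18.8 and 13.4 CPM in WT and at 12.6, 15.9 and 17.1 CPM in Wtap KO. Abcg1, its partner in export, was at 66.7, 82.7 and 81.5 CPM in WT and at 90.9, 86.0 and 81.3 CPM in Wtap KO. Both sets overlapped (edgeR adjusted p = 0.932 and 0.425). Nr1h2, which encodes LXR-beta, averaged 30.9 CPM in WT against 27.4 CPM in Wtap KO (edgeR adjusted p = 0.471). It passed with the GC offset (edgeR adjusted p = 0.0270, log2 fold change -0.37). Mylip and the cholesterol exporters, all known LXR targets, therefore did not share a call. Macrophages also express these exporters, and the 6 macrophage and monocyte markers summed to 0.262 to 1.51 TPM in WT and 0.558 to 2.71 TPM in Wtap KO. The 6 dendritic cell markers summed to 3.47 to 12.2 TPM in WT and 28.5 to 39.9 TPM in Wtap KO, with 2 genes higher, 0 lower and none at 0 in every library. The 2 were Cd74, averaging 4.87 TPM in WT and 27.1 in Wtap KO, and H2-Aa, averaging 1.34 and 5.94 TPM. These 2 made up most of the sum. Itgax, Flt3, Zbtb46 and Xcr1 averaged at most 0.308 TPM in either group and were not called. The part of the macrophage and dendritic cell markers in these results was not tested.

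Upstream sequence was compared because SREBP-2 acts at sterol gene promoters together with NF-Y. The 250 bases before each RefSeq start (GRCm38.p6) were read on both strands for 29 of the 36 genes. Fdps, Fdft1, Sqle, Scd1, Scd2, Fads1 and Abcg1 had no entry. The NF-Y box CCAAT was found in 21 of the 29 genes (72.4%) and in 13 of 14 sterol genes, against 37.5% of all genes in the table and 33.9% of all promoters. The 27025 genes of that table were not limited to expressed genes, as the 29 are, so the shares compare unlike sets. The SREBP motif TCACNCCAC was found in 1 of 29 genes, Hmgcs1, against 1.22% of all genes. The sterol element ATCACCCCA, of the same length, whose match can overlap one of the former, was found in Srebf2 only, against 0.277% of all genes. The E-box CACGTG was found in 7 of 29 (24.1% against 6.86%), and the DR4 consensus of LXR in 0 of 29 (0.0148% of all genes). A match is a run of letters, not a shown binding site.

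The stretches below belong to the 3 genes that fell and to the 2 with a sterol element, all on the plus strand, with CCAAT (read here as ATTGG) and the sterol elements in capitals. They are Idi1 (chr13:8885549-8885577 and chr13:8885580-8885605), Hmgcs1 (chr13:119690201-119690350), Srebf2 (chr15:82147031-82147180), Elovl5 (chr9:77917214-77917363) and Mylip (chr13:45389592-45389741). The RefSeq start of Idi1 lies inside the GENCODE gene span given above, and so do both Idi1 stretches.
Idi1, first box: tgcctccagctgATTGGcgagcccgggca
Idi1, second box: gtccaaggtgccATTGGctggcgacc
Hmgcs1: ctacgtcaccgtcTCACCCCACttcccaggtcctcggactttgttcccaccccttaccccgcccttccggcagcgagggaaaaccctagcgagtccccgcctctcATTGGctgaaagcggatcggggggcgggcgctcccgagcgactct
Srebf2: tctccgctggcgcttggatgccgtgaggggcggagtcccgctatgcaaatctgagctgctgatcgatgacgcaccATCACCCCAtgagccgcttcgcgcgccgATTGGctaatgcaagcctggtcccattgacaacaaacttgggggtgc
Elovl5: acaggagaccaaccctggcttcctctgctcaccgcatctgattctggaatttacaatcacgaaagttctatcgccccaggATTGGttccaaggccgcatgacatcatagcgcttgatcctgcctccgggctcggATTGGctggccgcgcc
Mylip: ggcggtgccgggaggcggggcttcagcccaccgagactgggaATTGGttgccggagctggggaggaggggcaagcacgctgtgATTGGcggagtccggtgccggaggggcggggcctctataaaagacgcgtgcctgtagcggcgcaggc
Elovl5 and Mylip each carry the inverted box more than once in the bases shown. The Idi1 stretches are shorter and were cut around matches to that box, so its presence there was fixed by the choice. For the same reason the Idi1 bases shown cannot tell whether a sterol element lies nearby. The upstream search described above found the box in Idi1, Elovl5 and Mylip. It found TCACNCCAC in Hmgcs1 only and ATCACCCCA in Srebf2 only.

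The share of each transcript within its gene was tested as well, since m6A is laid down on nascent RNA. Of 58 transcripts in 22 of the 36 genes, 0 passed in limma's test of a transcript's log2 ratio against its gene's other transcripts, and 6 had an unadjusted p under 0.05 (10.3%). Over all 22864 transcripts tested, 0.315% passed and 11.2% had an unadjusted p under 0.05. The Acly, Mvd and Srebf2 transcripts named next were chosen after their values were seen. The smallest p belonged to Acly-207, a coding transcript with 27 exons, which made up 27.4%, 23.1% and 25.9% of Acly counts in WT and 10.6%, 18.9% and 15.1% in Wtap KO (limma adjusted p = 0.297). Mvd-202, annotated for nonsense-mediated decay, made up 3.78%, 9.96% and 7.32% in WT and 17.03%, 11.8% and 16.3% in Wtap KO (limma adjusted p = 0.355). The 19-exon coding transcript of Srebf2 held 59.6% to 59.9% of Srebf2 counts in WT and 57.1%, 53.1% and 48.3% in Wtap KO (limma adjusted p = 0.478). The Srebf1 gene uses alternative first exons for the SREBP-1a and SREBP-1c proteins. Its coding transcript with 19 exons held 62.0%, 68.0% and 74.4% of counts in WT and 72.7%, 71.7% and 66.7% in Wtap KO. The pair of coding transcripts with 18 exons, which start further downstream, held at most 4.08% and 1.72% in any library. The error of kallisto's split of reads between transcripts is not in the files used here.

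Other lipid genes were read from 5 lists with 72 genes, of which 69 were tested. In edgeR's test 3 rose and 3 fell (4.35% each, against 5.75% and 3.49% of all genes tested), with a median log2 fold change of -0.06. Of 18 tested genes of sterol handling and SREBP processing, 0 rose and 2 fell. Lbr, a sterol reductase of the nuclear membrane that also anchors chromatin, went from 402 ± 18.7 CPM (SD, n = 3) to 286 ± 14.0 CPM (log2 fold change -0.49 ± 0.09, edgeR adjusted p = 0.0174). Lipa, the lysosomal lipase that frees cholesterol from its esters, went from 75.1 ± 5.16 to 50.7 ± 3.81 CPM (log2 fold change -0.57 ± 0.11, edgeR adjusted p = 0.0167). Of 8 other LXR pathway genes, Rxra, the receptor that pairs with LXR, rose from 5.20 ± 0.205 to 9.86 ± 1.52 CPM. Smpdl3a, a phosphodiesterase and LXR target, fell from 123 ± 4.35 to 85.7 ± 11.3 CPM (edgeR adjusted p = 0.0132 and 0.0297).

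Of 17 tested genes of fatty acid supply and elongation, 2 rose and 0 fell. Lpin1, a phosphatidate phosphatase, rose from 19.7 ± 1.15 to 27.66 ± 1.198 CPM (SD, n = 3) and Acacb, the mitochondrial acetyl-CoA carboxylase, from 0.474 ± 0.138 to 1.14 ± 0.132 CPM (edgeR adjusted p = 0.0325 and 0.0339). None of the 11 genes of isoprenoid use was called in edgeR, and none had an unadjusted p under 0.05 (0 of 11). Of 15 genes of fatty acid oxidation, 0 rose and 0 fell in edgeR's test, while 5 were lower and 3 were higher at an unadjusted p under 0.05 (26.3% of all genes tested met it). For 7 of the 15 (46.7%) every Wtap KO library lay below every WT library, against 15.5% of all genes tested. The count of called genes over the 5 lists was 0 without WT 2, without Wtap KO 1 and without Wtap KO 2. Few genes of the whole table were called in these settings: 565 of 18246, 397 of 18148 and 361 of 18132.

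**Figure D4:**
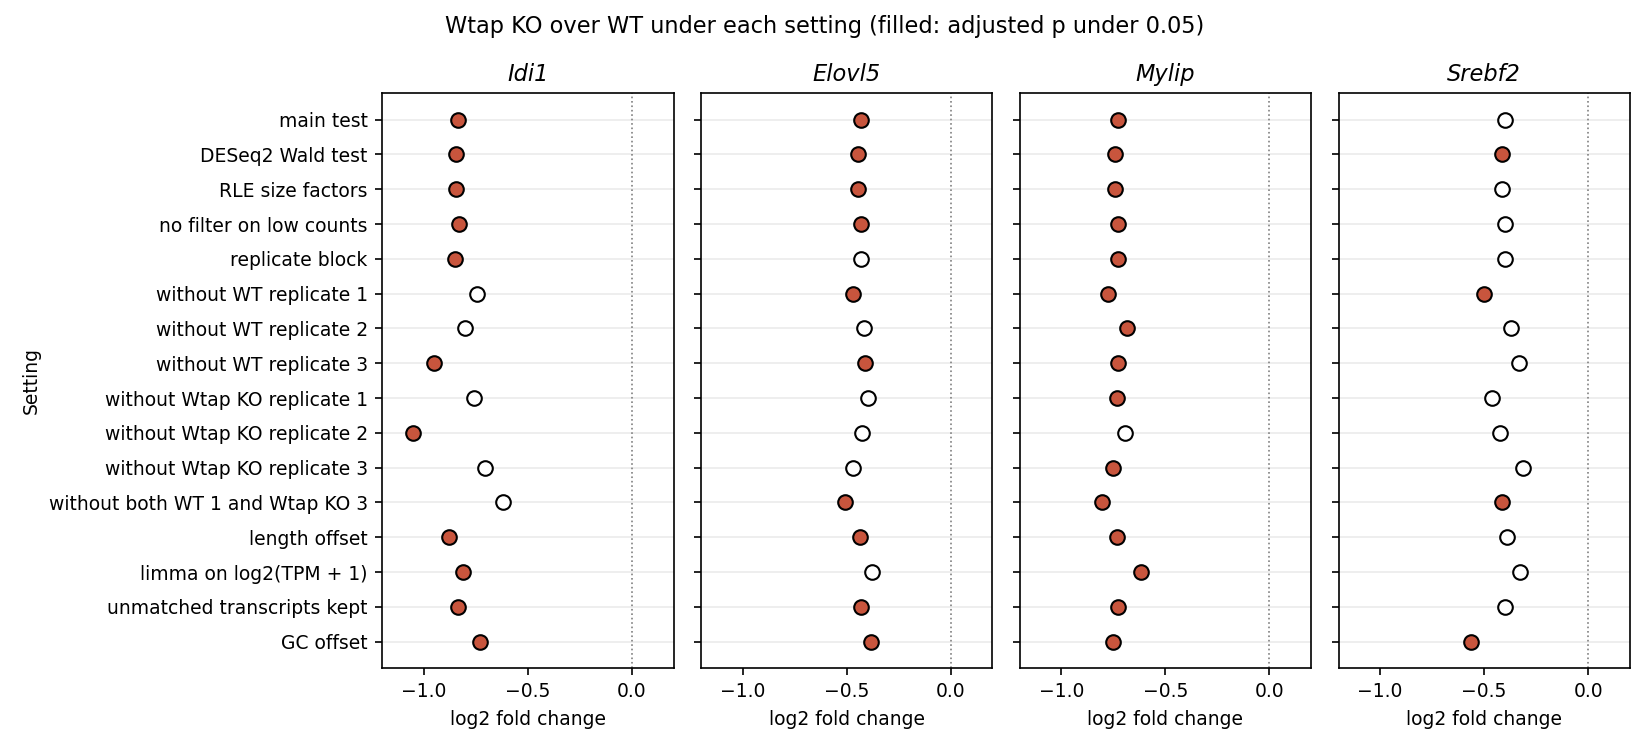
Log2 fold change (x axis, Wtap KO over WT) of the 3 genes that fell and of Srebf2 under the main test and 15 other settings (y axis), with filled points for an adjusted p under 0.05. All points lie below 0, Mylip is open in 1 setting, and Srebf2 is filled in 4.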

How the data were processed

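RNA of 3 WT and 3 Wtap KO libraries was analysed as 1 table per library with 142647 transcripts. Per the submitters' processing notes, kallisto 0.44.0, DESeq2 and the build GRCm38 were used, and the sources used here do not give the role of DESeq2, the index annotation or the strand setting. The authors deposited estimated counts, not normalized, and TPM values, which are counts divided by effective length and scaled per library. The deposited lengths served only for a length offset. Transcripts were matched to GENCODE M21 (99.15% of them), and a gene's estimated counts were added up and then rounded. Genes were tested with edgeR 4.0.16 in R 4.3.3 (quasi-likelihood, robust, TMM, filterByExpr, genotype only) with Benjamini-Hochberg adjustment over all genes and a threshold of 0.05. An SE is the absolute log2 fold change over the square root of F. Transcript shares were tested with limma 3.58.1 on log2 ratios with 0.5 added, for transcripts with at least 5% of their gene. Both tests were tested on simulated data. Alternatives were DESeq2 1.42.0, RLE factors, no filter, a replicate block, each library left out, length and GC offsets, limma on log2(TPM + 1) and unmatched transcripts kept. The 36 genes and all lists were chosen with earlier results of these data known. All 36 genes are accounted for. Full statistics are given for called genes, for the 4 next by p, and for Srebf1, Srebf2, Insig1, Fasn and Sqle. In the wider lists, called genes are named, at most 3 per list. Promoters came from RefSeq (GRCm38.p6).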

Additional observations from a re-analysis of the deposited data

How the results depend on the processing

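Over 15 alternatives, 26 of the 36 genes kept their direction (19 lower, 7 higher) and 10 reversed in at least 1. The number of all genes called was 1626, 2576 with DESeq2, 1061 with the replicate block and 361 to 2282 with 1 library left out. Among the 36 genes, 3 were called, all lower. This was 8 with DESeq2, 5 with the GC offset and 1 to 4 with 1 library left out. Shares called lower were 22.2% against 6.88% of all genes with DESeq2, and 13.9% against 6.04% with the GC offset. Without both WT 1 and Wtap KO 3, chosen after seeing the data, 6 were called, 2 of them higher (Acaca and Dhcr7). Of calls over all genes, 62.2% were higher, 53.0% with DESeq2, 52.4% with the GC offset, 73.8% with limma on log2(TPM + 1), and 70.3%, 71.3% and 72.8% without WT 2, Wtap KO 1 and Wtap KO 2. In the wider lists 6 of 69 tested genes were called (8.70%, against 9.23% of all genes). The count was 11 with DESeq2, where 14.6% of all genes were called. It was 2 with the replicate block (1061 of 17610 genes over the whole table) and 11 with the GC offset (2233 of 17610). Without both libraries it was 12 (2402 of 17820 over the whole table), and with 1 left out 0 to 11 (361 to 2282 genes). No transcript share of the 36 genes was called by limma in any of its 9 alternatives.

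Reversed log2 fold changes, all of genes that were not called, were as follows. Without both WT 1 and Wtap KO 3 they were 0.15 for Fdft1, 0.0380 for Tm7sf2, 0.0143 for Msmo1, 0.0143 for Nsdhl, 0.19 for Hsd17b7 and 0.18 for Srebf1. With the GC offset they were -0.0148 for Pmvk and 0.0713 for Hsd17b7. With the length offset they were 0.13 for Lss and -0.0226 for Acat2, and with limma on log2(TPM + 1) 0.14 for Lss and 0.0077 for Hsd17b7. With 1 library left out, values ran from -0.17 to 0.13 for Fdft1, -0.23 to 0.053 for Tm7sf2, -0.33 to 0.075 for Msmo1, -0.16 to 0.20 for Hsd17b7, -0.066 to 0.13 for Acat2, -0.14 to 0.16 for Srebf1 and -0.13 to 0.12 for Abca1. The causes were not tested.

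The replicate numbers are shared by both groups, but the labels tie them to no animal, litter or day. Deviations of same-numbered libraries from their group means correlated at -0.10, 0.05 and 0.14, so the numbers were not taken to pair the libraries. With the replicate block 4 of the 36 genes were called lower (Fdps, Hmgcs1, Idi1 and Mylip), against 1.97% of all genes, and Elovl5 had an edgeR adjusted p of 0.0741. With 3 libraries per group, genes that differ by little on the log2 scale are seldom called. In simulated data, edgeR called 6 of 50 genes changed by 0.58 on the log2 scale, in the right direction. It called 23 of 50 changed by 1 and 45 of 50 changed by 2. The changed genes were drawn at random from all 17610 genes tested, at every level of expression. They were far fewer than the 1626 genes called in the data, which makes the adjustment stricter in the simulation. These rates are therefore not rates for the 36 genes. A gene that did not pass can still differ.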
